A study of Caenorhabditis elegans with 2 samples.

Results

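The 5 genes described here encode the subunits of the nascent polypeptide-associated complex, icd-1 and icd-2, and of the SEC61 translocon, sec-61.A, sec-61.B and sec-61.G. They are 5 of 19985 protein-coding genes in the annotation and were chosen by name, with the peaks near them known, so their counts, signals and ranks are descriptions and carry no test. The data are peak lists from chromatin immunoprecipitation and sequencing of ZK546.5, a zinc finger protein, in whole Caenorhabditis elegans at the L2 larval stage. All worms came from the strain OP231 (unc-119(ed3) III; wgIs231), a single transgenic line in which ZK546.5 carries a GFP-FLAG tag at its C-terminus, and the labels name the antibody by its target alone. Both sexes were mixed, the age beyond the stage is unknown per the labels, and 2 biological replicates form the 1 group, so there is no untagged or untreated group to compare. A gene was credited with a peak when the peak's summit lay between 1000 bp upstream and 200 bp downstream of an annotated 5' end of the gene. The lists read were the peaks that passed the authors' reproducibility threshold (491), the peaks called on the pooled reads (30000), and the peaks called on replicate 1 (19076) and on replicate 2 (30000) alone.

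The nascent polypeptide-associated complex is a heterodimer that sits at the exit of the ribosomal tunnel and touches growing proteins as they emerge. It keeps ribosomes that make cytosolic proteins away from the endoplasmic reticulum (ER), while the signal recognition particle takes ribosomes that make secretory and membrane proteins there. The SEC61 channel in the ER membrane then receives the growing chain. In C. elegans icd-2 encodes the alpha subunit of the nascent chain complex and icd-1 the beta subunit, while sec-61.A encodes the pore-forming alpha subunit of the channel and sec-61.B and sec-61.G its small beta and gamma subunits.

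The sequence around the strongest pooled summit is shown for 4 of the genes. The windows of icd-1, sec-61.B and sec-61.G are shown because they hold runs of bases shared within the set. That of sec-61.A is shown because it holds none of them. The genes were chosen with their peaks known, and the run shared by sec-61.G and icd-2 was most frequent among the strongest peaks. Its sharing is therefore not independent of the choice of genes. Each window holds 201 bases centred on the summit, read 5' to 3' on the strand of the gene (the minus strand for all 4) from the RefSeq genome sequence of WBcel235, which is the sequence of the ce11 build used by the authors. The windows are chrII:6588985-6589185 (icd-1), chrIV:14825080-14825280 (sec-61.A), chrIV:2389037-2389237 (sec-61.B) and chrV:10897280-10897480 (sec-61.G). Capitals mark words shared between genes of the set: the 13-base word of icd-1 and sec-61.B, the 12-base word of sec-61.G and icd-2, and the 7-base word CCTGCAC that sec-61.G, icd-2 and sec-61.B have in common. The window of icd-2 is described by its counts and is not printed.
icd-1: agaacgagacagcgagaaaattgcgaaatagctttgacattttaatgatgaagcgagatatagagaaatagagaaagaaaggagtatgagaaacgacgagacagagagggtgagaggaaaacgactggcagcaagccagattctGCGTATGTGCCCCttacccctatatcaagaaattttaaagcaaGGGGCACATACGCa
sec-61.A: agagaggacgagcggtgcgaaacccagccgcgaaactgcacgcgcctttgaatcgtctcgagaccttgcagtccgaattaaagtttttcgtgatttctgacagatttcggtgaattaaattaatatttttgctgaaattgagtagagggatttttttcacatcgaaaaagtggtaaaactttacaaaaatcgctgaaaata
sec-61.B: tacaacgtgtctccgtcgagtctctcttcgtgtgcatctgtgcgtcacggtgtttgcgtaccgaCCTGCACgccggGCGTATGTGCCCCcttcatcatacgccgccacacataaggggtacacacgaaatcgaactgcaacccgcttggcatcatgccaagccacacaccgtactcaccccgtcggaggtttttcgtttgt
sec-61.G: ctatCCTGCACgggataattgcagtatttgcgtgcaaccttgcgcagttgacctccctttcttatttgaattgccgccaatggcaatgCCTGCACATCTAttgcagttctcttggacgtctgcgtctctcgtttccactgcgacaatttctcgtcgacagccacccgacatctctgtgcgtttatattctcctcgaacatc

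A thresholded summit lay in the window of 4 of the 5 genes, icd-1, icd-2, sec-61.B and sec-61.G, whereas 578 of all 19985 protein-coding genes (2.89%) had one. Since the genes were selected on these lists, the 4 of 5 says nothing beyond that selection. sec-61.A had a pooled summit below the threshold, so a pooled summit of any strength lay in the window of all 5 genes, as it did for 8159 coding genes (40.8%). In each replicate's full list all 5 genes again had a summit, and 3403 coding genes (17.0%) had one in the pooled list and in both replicates' lists. Among the 491 strongest peaks of replicate 1 the count was 4 of 5 (background 2.77%, 553 genes), and among the 491 strongest of replicate 2 it was 5 of 5 (background 2.77%, 553 genes). The 20 strongest pooled peaks had their summits in the windows of 34 coding genes (0.170%), and icd-2 and sec-61.G were 2 of them.

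The pooled signals of the 5 genes covered an 80.2-fold range within the pooled list, from 38.4 at sec-61.A to 3081 at sec-61.G, with 150.0 at icd-1 in the middle. The range was 89.3-fold in replicate 1 and 41.7-fold in replicate 2. Each complex held 1 gene with a very strong peak and at least 1 with a far weaker one: the peak at icd-2 had 15.6 times the pooled signal of that at icd-1, and the peak at sec-61.G had 27.0 times that of sec-61.B. Over the 8159 coding genes with a pooled summit in the window, the median of the strongest signal was 17.7. Signal is the peak caller's own value for a peak and has no shared scale between lists, so ranks by signal within a list are given beside it.

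**Figure D1:**
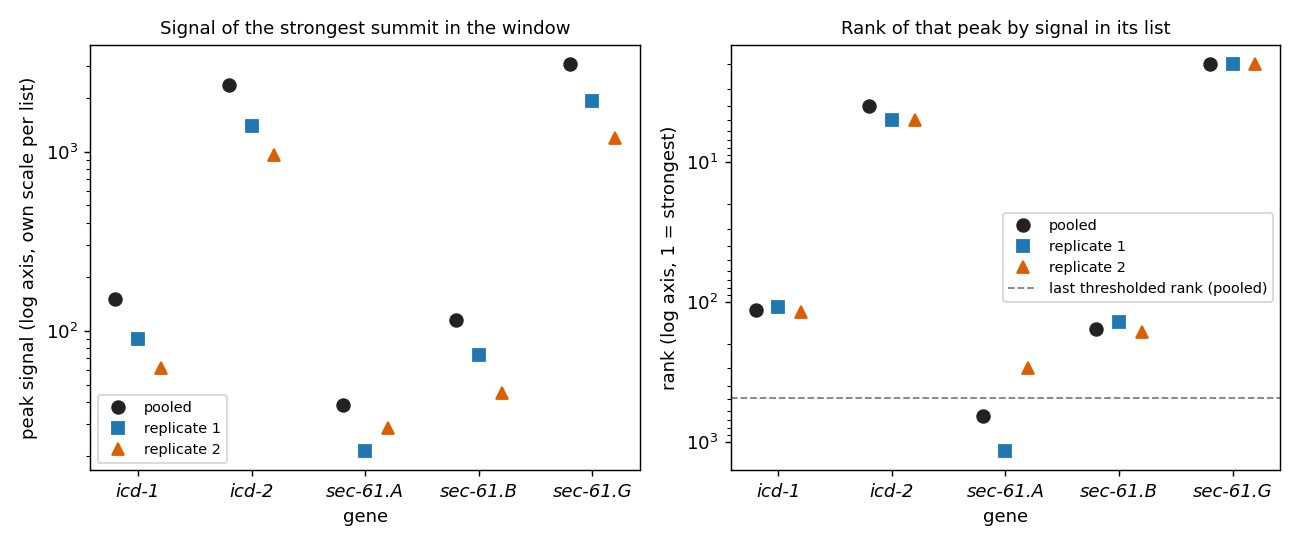
Signal (left, log axis) and rank by signal (right, log axis, 1 = strongest) of the strongest summit in each gene's window, in the pooled list, replicate 1 and replicate 2; the dashed line is the last thresholded rank of the pooled list, 491. sec-61.G and icd-2 rank between 2 and 5 in every list, icd-1 and sec-61.B between 110 and 164, and sec-61.A between 297 and 1165.

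The alpha and beta subunits of the nascent polypeptide-associated complex differed in rank. At icd-2 the signal was 2345 in the pooled list (rank 4), 1397 in replicate 1 (rank 5) and 959.1 in replicate 2 (rank 5). The icd-2 gene (WBGene00022042) lies on the plus strand of chromosome I at 535791-536587, and the summit lay 346 bp before its 5' end in the pooled list and in replicate 1, and 343 bp before it in replicate 2. No other gene's window held this summit. The peak was intergenic at its summit, in the 446 bp between icd-2 and psf-3, which encodes a subunit of the GINS replication complex, and the summit lay 101 bp past the 3' end of psf-3.

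The strongest peak of every list lay on the other side of icd-2. Its signal was 3454 in the pooled list, 2027 in replicate 1 and 1443 in replicate 2, rank 1 in each. Its summit was 1080 bp downstream of the 5' end of icd-2 and 284 bp past the gene's 3' end, so it fell outside the window of icd-2 and inside that of wwp-1, a HECT-type ubiquitin ligase gene whose 5' end was 251 bp away. The summits on either side of the 797 bp icd-2 gene were 1426 bp apart. A further thresholded peak with a signal of 72.2 (rank 269) had its summit 1468 bp upstream of icd-2.

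At icd-1 the signal was 150.0 in the pooled list (rank 115), 90.1 in replicate 1 (rank 110) and 61.5 in replicate 2 (rank 118). The gene (WBGene00002045) lies on the minus strand of chromosome II at 6587577-6588655, and the peak covered 6588907-6589262. The pooled summit lay 430 bp before the 5' end, that of replicate 1 at 423 bp and that of replicate 2 at 445 bp. The same summit was 623 bp upstream of vps-32.1, an ESCRT-III gene on the plus strand whose 5' end is 1053 bp from that of icd-1. It also lay in an exon of the non-coding RNA gene C56C10.15, 44 bp inside its 5' end, and 162 bp downstream of the 5' end of C56C10.14, a short non-coding RNA gene on the opposite strand that ends before the summit. The peak lists do not say which of these 4 genes a summit belongs to.

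Of the 3 translocon genes, sec-61.G had the strongest peak. Its signal was 3081 in the pooled list, 1906 in replicate 1 and 1190 in replicate 2, and its rank was 2 in each list. The gene (WBGene00001303) lies on the minus strand of chromosome V at 10896658-10897143, and the peak at 10897160-10897626 began just beyond its 5' end. The summit was 237 bp upstream in the pooled list, 238 bp in replicate 1 and 234 bp in replicate 2. It was intergenic and also fell in the window of F32D8.13, annotated by RefSeq as a phosphomevalonate kinase gene, at 837 bp upstream. A separate thresholded peak of signal 49.7 (rank 443) lay 642 bp downstream of the 5' end of sec-61.G, 40 bp from the 5' end of F32D8.13.

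At sec-61.B the signal was 114.3 in the pooled list (rank 156), 73.6 in replicate 1 (rank 140) and 44.97 in replicate 2 (rank 164). The gene (WBGene00021427) lies on the minus strand of chromosome IV at 2388185-2388675, with the peak at 2388959-2389314. The pooled summit lay 462 bp before the 5' end, that of replicate 1 at 473 bp and that of replicate 2 at 483 bp. The pooled summit was nearer, at 308 bp, to the 5' end of trap-3, which encodes a subunit of the translocon-associated protein complex and is read in the opposite direction from a 5' end 770 bp away. The 2 genes thus share 1 peak and are not separate counts. The summit also lay in an exon of the non-coding RNA gene Y38F2AR.17 and 40 bp upstream of the non-coding RNA gene Y38F2AR.16.

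The gene for the channel itself, sec-61.A, had the weakest peak of the 5. Its pooled signal was 38.4 (rank 659), 168 ranks past the last thresholded peak. The weakest thresholded peak had a signal of 45.928 and the strongest peak below the threshold 45.909, so the threshold cut through a continuous series of signals. In replicate 1 the strongest summit in the window had a signal of 21.3 (rank 1165) and in replicate 2 it had 28.5 (rank 297). The gene (WBGene00013311) lies on the minus strand of chromosome IV at 14822540-14825264 with 2 annotated 5' ends. The pooled summit was 84 bp downstream of the nearest 5' end, in the 5' untranslated region, and the replicate 2 summit was 123 bp downstream, but the replicate 1 summit was 107 bp upstream. The pooled summit was also 499 bp upstream of rps-18, which encodes a protein of the small ribosomal subunit.

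**Figure D2:**
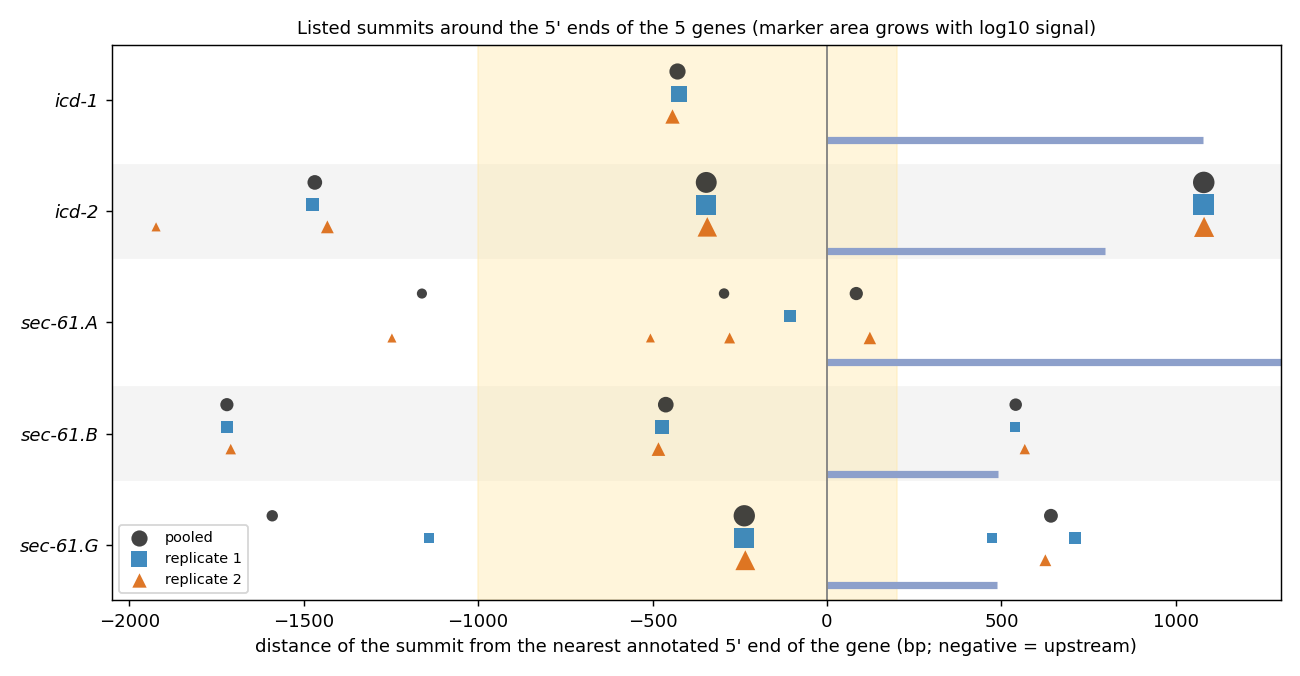
Distance (bp) of every listed summit from the nearest annotated 5' end of each gene, with negative values upstream; marker shape gives the list, marker area grows with log10 signal, the shaded band is the window from 1000 bp upstream to 200 bp downstream and the horizontal bar is the gene. In the 4 genes with a thresholded summit the strongest marks inside the band stack at 234 to 483 bp upstream, whereas the marks of sec-61.A fall on both sides of the 5' end.

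The replicates placed the summits of the strong peaks at nearly the same base. The summits of replicates 1 and 2 were 3 bp apart at icd-2, 4 bp at sec-61.G, 10 bp at sec-61.B and 22 bp at icd-1, but 230 bp at sec-61.A. Of the 491 thresholded peaks, 487 overlapped a peak in both replicates' lists, with a median gap between replicate summits of 22 bp (quartiles 8 and 48.5 bp). A gap of 10 bp or less was found at 150 of the 487 (30.8%), and a gap of 230 bp or more at 10. The larger rank divided by the smaller was 1 at icd-2 and sec-61.G, 1.07 at icd-1 and 1.17 at sec-61.B, against a median of 1.35 and an upper quartile of 1.89 over the 487 peaks. At sec-61.A it was 3.92. The signal in replicate 1 was 1.46 to 1.64 times that in replicate 2 at the 4 genes with a thresholded summit, near the median of 1.46 over the 487 peaks, and 0.748 times at sec-61.A. The replicates come from 1 line, and the lists carry no read counts, so these values show the agreement of 2 libraries and the depth behind them is unknown.

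The strong peaks were also wide. The most common width of a thresholded peak was 356 bp, held by 379 of 491, and icd-1 and sec-61.B had that width. Only 24 thresholded peaks were wider, of which 19 were among the 20 strongest, and these included the 458 bp peak at icd-2 and the 467 bp peak at sec-61.G. The widths of the same peaks were 449 and 461 bp in replicate 1 and 398 and 403 bp in replicate 2. The icd-2 peak reached 102 bp into the end of psf-3.

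Both summits of intermediate rank lay in annotated non-coding RNA genes, at icd-1 and at sec-61.B, and neither of the strongest did. Of the 491 thresholded summits 45 (9.16%) lay in such a gene, and 1 of the 20 strongest did (5.0%). Below the threshold 371 of the 29509 pooled summits did (1.26%). A strong peak outside such a gene was therefore the usual case. What these RNAs do is not given in the annotation.

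The genes nearest in rank were taken from the whole genome. Over the 3403 coding genes with a summit in the pooled list and in both replicates' lists, closeness was measured as the Euclidean distance over the 3 log2 ranks, leaving out genes on the same peak. The neighbours of sec-61.G were ekl-4 and rps-20, which share 1 peak at rank 3 in all 3 lists (distance 1.01). Those of icd-2 were tba-2, an alpha-tubulin gene (ranks 5, 4 and 6, distance 0.526), and sqd-1 (ranks 6, 7 and 4, distance 0.826). For icd-1 they were eelo-2 (ranks 114, 117 and 119, distance 0.0907) and fbxl-2 (ranks 116, 118 and 114, distance 0.114). For sec-61.B they were dnj-9, a DnaJ-domain gene (ranks 147, 145 and 161, distance 0.103), and Y54F10AM.15 (ranks 154, 137 and 180, distance 0.139).

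The windows differed in base composition. Over the 101 bases centred on the summit the GC content was 58.4% at sec-61.B, 47.5% at sec-61.G, 45.5% at icd-1, 44.6% at icd-2 and 34.7% at sec-61.A. The median was 48.5% over the thresholded summits (quartiles 42.6 and 53.5%) and 32.7% over the pooled summits below the threshold. Thus sec-61.A lay near the second median, and the other 4 genes lay in the range of the thresholded summits or, for sec-61.B, above its upper quartile. No 6-base word, counting both strands, was common to the 4 genes with a thresholded summit within 50 bp of it.

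The longest word shared by any pair of the 201-base windows had 13 bases (icd-1 and sec-61.B), followed by 12 bases (sec-61.G and icd-2), and every other pair shared at most 9. The 12-base word is the second run of capitals in the sec-61.G sequence. Its centre was 6.5 bp from the summit at sec-61.G and 13.5 bp from it at icd-2, where it is read in the opposite orientation relative to the gene. These words were picked out after the sequences were seen, and a shared word is a description of letters and not a binding site.

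Peaks carrying the 12-base word were concentrated at the top of the list. It was present within 100 bp of the summit in 10 of the 20 strongest pooled peaks and in 3 of the 30 peaks at ranks 21 to 50. The 10 include the peaks of sec-61.G and icd-2, so that share was partly fixed by how the word was defined. At ranks 51 to 200 it was in 0 of 150, which allows a share of up to 2.43% (exact Clopper-Pearson 95% interval). At ranks 201 to 491 it was in 0 of 291 (up to 1.26%). Below the threshold 2 of 29509 pooled peaks held it (0.00678%). It was also in 12 of 19985 windows of the same length centred 250 bp upstream of a coding gene's 5' end. Those windows cover all coding genes, the defining genes sec-61.G and icd-2 included. Without the peaks of sec-61.G and icd-2 that defined the word, the counts were 8 of 18 in the strongest band and 11 of 489 over all thresholded peaks. Intervals cover counting error only.

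The whole genome held 40 copies of the 12-base word, of which 13 lay in thresholded peaks, 4 in other pooled peaks and 23 in none. In the 13 thresholded peaks with the word near the summit its centre was 0.5 to 13.5 bp from the summit (median 8.5 bp). Apart from sec-61.G and icd-2, the carriers among the 20 strongest were the peaks with summits in the windows of wwp-1, tba-2, eef-2 and clsp-1, rpl-11.2, ash-2 and Y17G7B.20, tmem-107 and rps-26, rfc-4 and eef-1A.1, and F01G4.6 and pfd-1. These genes were named after their values were seen.

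The 7-base word CCTGCAC was kept, among the longest words common to sec-61.G, icd-2 and sec-61.B, because it lies inside the 12-base word. At sec-61.B it occurred 33 bp from the summit. It was found 9 and 93 bp from the summit at sec-61.G and 16 bp from it at icd-2. Within 100 bp of the summit 11 of the 20 strongest peaks held it (55.0%), as did 5 of 30 at ranks 21 to 50 (16.7%), 4 of 150 at ranks 51 to 200 (2.67%) and 1 of 291 at ranks 201 to 491 (0.344%). The share was 0.691% below the threshold (204 of 29509) and 0.706% in the promoter windows (141 of 19985), those of the defining genes included. Without the 3 peaks that defined the word, 9 of 18 peaks in the strongest band and 18 of 488 thresholded peaks held it. Every peak with the 12-base word also holds the 7-base word, so the 2 sets of counts are not separate. The 11 include the 10 peaks with the 12-base word among the 20 strongest, and the 5 include the 3 at ranks 21 to 50.

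**Figure D3:**
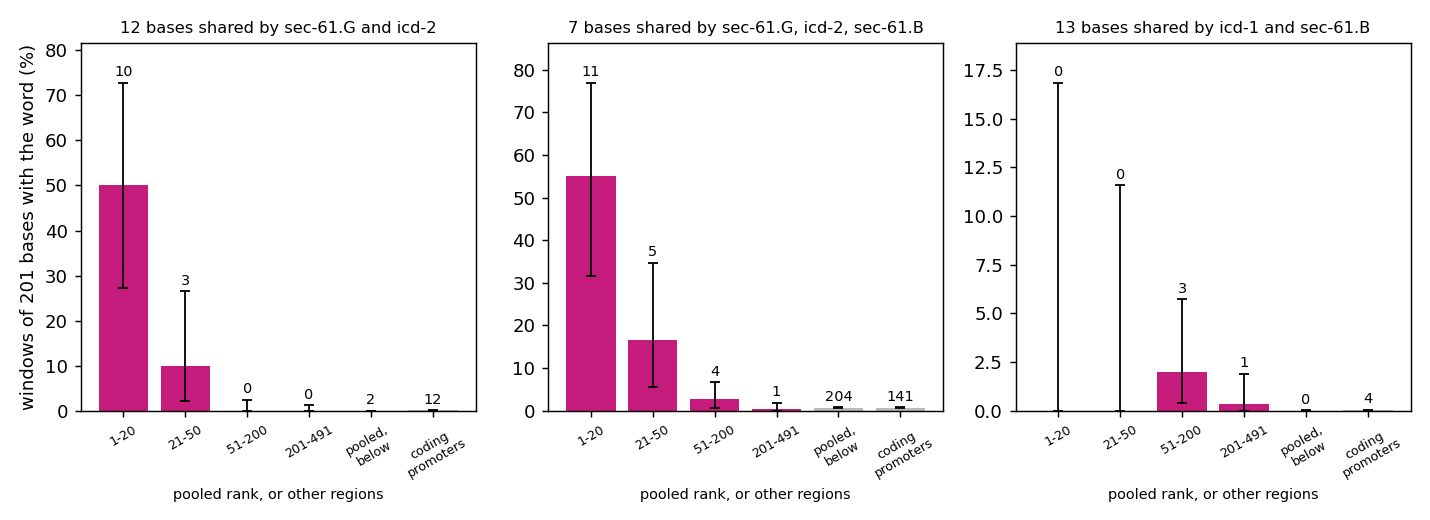
Percent of 201-base windows that hold each shared word on either strand, by rank of the pooled peak, for pooled peaks below the threshold and for coding promoters; numbers over the bars are counts and error bars are exact 95% intervals, and the 3 panels have their own vertical scales. The 12-base word is in 10 of the 20 strongest peaks and in 0 thresholded peaks beyond rank 50. The 7-base word, which lies inside it, is in 11 and 5, and the 11 include those 10. The 13-base word occurs in 0 of the 50 strongest. Bars and error bars count the peaks that defined each word.

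The 13-base word is by its definition shared by icd-1 and sec-61.B, the 2 genes of intermediate rank. At icd-1 it occurred 2 times in opposite orientations, with centres 50 and 93 bp from the summit on the side toward the gene and 30 bases between the copies, and at sec-61.B it occurred 1 time, 18 bp from the summit. Only 2 further thresholded peaks held it, with summits in the windows of eef-1G and ctf-4 (signal 128.4, rank 137) and of eef-1A.2 (signal 72.6, rank 265). Thus 4 of 491 thresholded peaks held the word, or 2 of 489 without the defining peaks. It was in 0 of 29509 pooled peaks below the threshold (up to 0.0125%) and in 4 of 19985 promoter windows. The promoter windows were counted with those of the defining genes included. Of 8 copies in the genome 5 lay in the 4 thresholded peaks, 2 in other pooled peaks away from the summit and 1 in none. The window of sec-61.A held none of the 3 words.

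Short motifs, 11 in number, were searched for on either strand in the 101 bases centred on each summit. The GAGA-type repeat GAGAG was found at icd-1 in 2 copies and at sec-61.G in 1, and in 35.8% of thresholded, 12.6% of other pooled and 13.7% of promoter windows. The CT repeat CTCTCT, whose other strand holds GAGAG, was found at icd-1 (17.7, 4.53 and 5.31%), and the word GCGTCT was found at sec-61.G (15.7, 2.34 and 2.44%). The T run TTTTTT was found at icd-2 (17.5, 53.7 and 45.1%). The splice acceptor-like word TTTCAG was found at sec-61.A (6.52, 21.8 and 17.7%), where the strand of the gene reads its reverse complement CTGAAA. The TATA box word TATAAA, the E-box word CACGTG, the repeat word CGCGCG, the E2F-type word TTCCCGC, the GC box word GGGCGG and the word TGACGT of the cAMP response element were in none of the 5 windows. A motif that was not found says only that these letters were not in this window.

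The steps before and after the translocon were covered by 7 lists with 43 genes. A thresholded summit lay in the window of 13 of the 43 (30.2%, exact 95% interval 17.2 to 46.1%), beside 2.89% of all coding genes, and any pooled summit in that of 31 (72.1%), beside 40.8%. Their signals were modest: they ran from 47.3 to 114.3 with a median of 60.8, compared with a median of 74.6 over the thresholded list. None came near icd-2 or sec-61.G. The highest, 114.3, belongs to the peak that trap-3 shares with sec-61.B, and the highest apart from it was 109.1. All 13 summits lay upstream of the 5' end. Of these 13 genes trap-3 alone held a shared word, in the peak it shares with sec-61.B. The lists were chosen with earlier results of these data known, so the counts are descriptions.

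Among genes of the signal recognition particle and its receptor, 2 of 7 had a thresholded summit: F37F2.2 (signal 48.8, rank 458) and F21D5.7 (47.3, rank 473). Among the partners of the translocon the count was 4 of 8. These were trap-3, on the peak of sec-61.B, the stress-associated ER protein gene serp-1.1 (101.6, rank 176), trap-2 (60.8, rank 333) and dnj-29, a relative of the translocon partner Sec63 (53.1, rank 400). The related gene trap-1 had a pooled signal of 36.96 (rank 726) and trap-4 one of 21.9 (rank 4689).

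In signal peptidase 1 of 4 genes had a thresholded summit, spcs-2 (77.7, rank 233), and in oligosaccharyltransferase, which attaches sugars to the entering chain, 1 of 6, dad-1 (73.2, rank 259). Of ER membrane insertion genes 0 of 6 had one, the nearest being emc-6 with a pooled signal of 43.0 (rank 541), and of other factors that act on nascent chains 0 of 3. Among ER chaperones the count was 5 of 9: pdi-3 (109.1, rank 165), enpl-1 (61.96, rank 327), the BiP gene hsp-3 (56.4, rank 373), pdi-6 (51.8, rank 411) and pdi-2 (49.1, rank 452). The other BiP gene, hsp-4, had a pooled signal of 20.98 (rank 5637). At pdi-3 and dad-1 another coding gene's 5' end was nearer to the summit (ubql-1 and tre-1). Counting genes of every type, 8 of the 13 list genes with a thresholded summit had the nearest 5' end. The summits at dnj-29 (fld-1 and ndua-2), trap-2 (ile-2), spcs-2 (mrg-1) and enpl-1 (imp-2) also lay in the windows of the coding genes in brackets. For these shared summits the gene cannot be told from the lists.

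**Figure D4:**
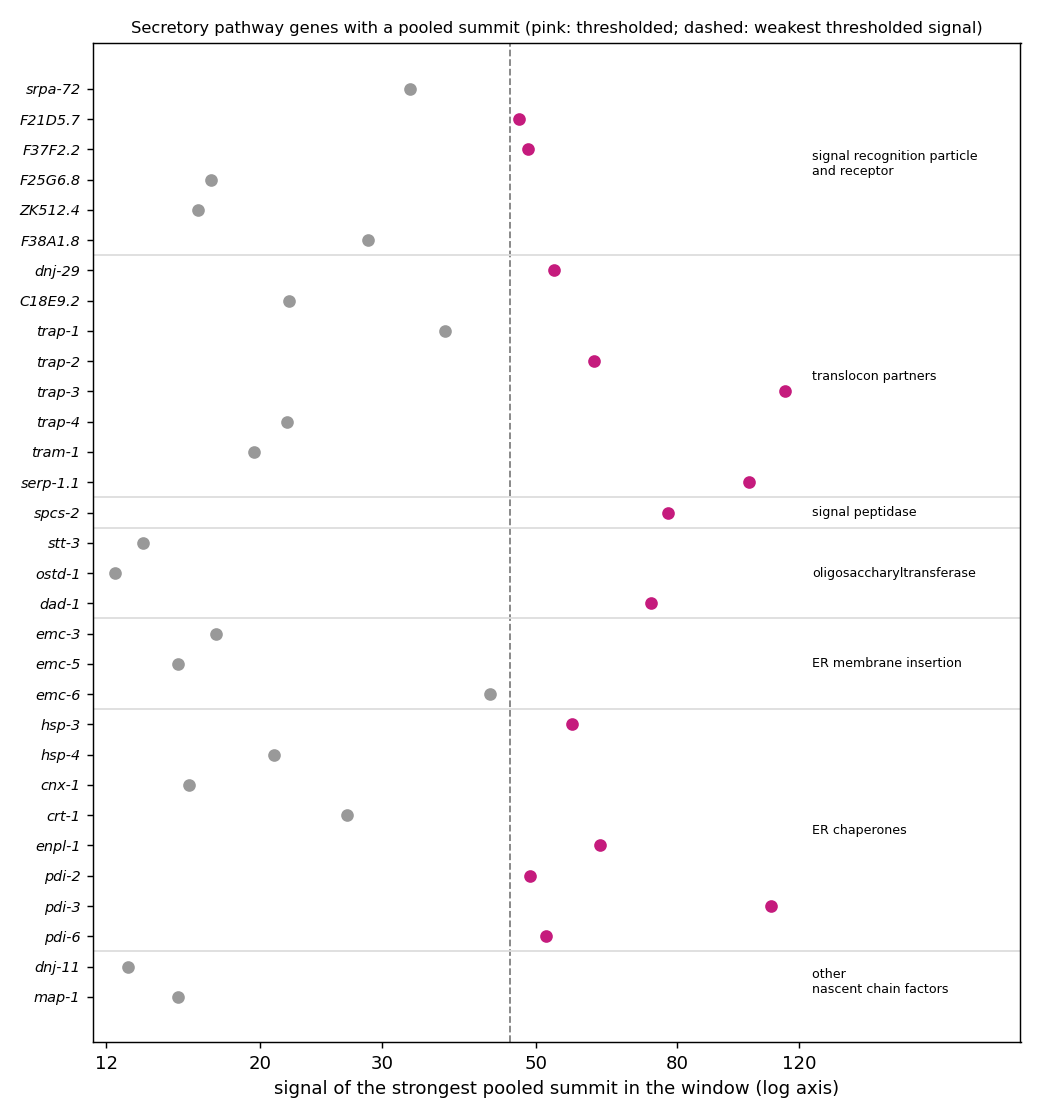
Signal (log axis) of the strongest pooled summit in the window of each secretory pathway gene that had one, grouped by list; pink points are thresholded and the dashed line is the weakest thresholded signal, 45.9. The 13 thresholded genes lie between 47.3 and 114.3, the highest being the peak that trap-3 shares with sec-61.B. A further 12 genes of the lists have no pooled summit and are not drawn.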

How the data were processed

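Peak lists from 2 biological replicates of tagged ZK546.5 ChIP-seq, numbered in the labels, were analysed on the ce11 build; the same lists on ce10 were not used. Peaks were called on each replicate's reads and on the pooled reads with a control library that is not analysed here, and a thresholded list was derived by IDR, per the submitters' records. The aligner, peak caller, threshold and read depth were not given in the sources used here, so the precision behind a signal is unknown. The authors deposited a signal for each peak, in the column the narrowPeak format gives to enrichment, with no scaling between lists. The score column, deposited by the authors in the place of a significance value, was not used. Summits were read from the offset that the authors deposited with each peak.

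Summits were assigned to every gene whose annotated 5' end (Ensembl release 115, WBcel235) was within 1000 bp downstream or 200 bp upstream of them, so a summit can count for several genes. Trans-splicing is common in C. elegans, so transcription may begin upstream of an annotated 5' end. The members, the gene lists and the words were chosen with earlier results of these data known. Named are the 5 genes, the genes that share their summits, 2 rank neighbours for each gene with a thresholded summit, and each list gene with a thresholded summit; others were named after their values were seen. Of 57 list identifiers 9 had no gene in the annotation, 4 named a gene already counted, and let-49 was left out because it is annotated as a Mediator subunit, which left 43 genes in 7 lists. One further gene of the lists is not reported here. No test was made, since the genes were chosen on these lists and there is 1 group; counts have exact Clopper-Pearson intervals. Other factors' peaks were not analysed, and promoters particular to ZK546.5 cannot be told apart from promoters where many factors have peaks. Alternatives covered the window, the midpoint, the stronger peaks, assignment to the nearest gene, the mitochondrial chromosome, the word window and each replicate alone. Steps ran in Python 3.11.15 with pandas 2.3.3, numpy 2.4.6, scipy 1.17.1 and matplotlib 3.10.9, and the summit lookup was tested on simulated data.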

Additional observations from a re-analysis of the deposited data

How the results depend on the processing

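The count of 4 of the 5 genes with a thresholded summit held for every window size, for any overlap, for the midpoint and for the stronger part of the list. It fell to 2, icd-2 and sec-61.G, when a summit counted only for the nearest 5' end of any gene, and to 3 for the nearest coding gene, an alternative added after seeing the data; it was 4 to 5 in single replicates. Of the 43 secretory pathway genes 4 had a summit in the stronger part of the list and 8 by the nearest gene, with 9 to 11 in single replicates. The share of coding genes was 2.41% with 500 bp upstream, 3.64% with 2000 bp, 1.5% for the stronger part, 1.56% for the nearest gene, 1.88% for the nearest coding gene (added after seeing the data) and 2.77% in either replicate. Within 100 bp of the pooled summit 1 word of 6 bases was common to the 4 genes. Within 50 bp of a single replicate's summit the number was 0 to 1. Without the mitochondrial chromosome icd-1 ranked 99 and sec-61.B 137. The pooled signals of the 5 genes were the same under all window settings. No paired analysis was possible because the labels give 1 group. Read depth is unknown, so an absent peak is a peak not listed. A summit shared by neighbouring genes cannot be assigned to 1 of them.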
